A study of Mus musculus with 6 samples.

Results

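The CXC chemokines are small secreted or membrane-bound proteins that guide leukocytes through G protein-coupled receptors. The transcripts of 9 of these genes were followed here in anti-inflammatory M2 macrophages (Mφs). The 9 were chosen by their symbols (Cxcl1, Cxcl2, Cxcl3, Cxcl5, Cxcl9, Cxcl10, Cxcl11, Cxcl14 and Cxcl16) among the 41549 genes of the count table, and all 9 were present. Bone marrow-derived cells of wild type Mus musculus (C57Bl/6N adults) were grown into naïve M0 Mφs with M-CSF and transfected with an antisense oligonucleotide. In the αGlu group the antisense was directed against 5′tRF-Glu(CTC), a piece cut from the 5′ part of glutamate tRNA, and in the Ctr group it was a control. Cells of both groups were then polarized with IL-4 and IL-13, and each group had 3 libraries of polyadenylated RNA. The comparison asks how CXC chemokine transcripts differ between M2 Mφs in which the fragment was blocked and those in which it was not. The libraries came from primary cells in culture, a transient transfection and bulk RNA, so that a change in the number of cells of a kind and a change in RNA per cell cannot be told apart.

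CXC chemokines fall into groups by receptor. Cxcl1, Cxcl2, Cxcl3 and Cxcl5 carry a glutamate-leucine-arginine motif, bind Cxcr2 and draw neutrophils, and macrophages make them in response to NF-κB-activating stimuli. Cxcl9, Cxcl10 and Cxcl11 bind Cxcr3, draw activated T cells and natural killer cells, and are classical targets of interferons. Cxcl14 is a constitutively made chemokine of many epithelia and other tissues. Cxcl16 is made as a transmembrane protein, acts as a scavenger receptor for oxidized lipoproteins, is released by metalloproteases of the ADAM family and binds Cxcr6.

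The oligonucleotide and its target are given because they define the αGlu group. Capitals mark the bases of the fragment, 2 to 21 of the 21 printed, that are complementary to the antisense, and the fragment is written in DNA letters.
Antisense against 5′tRF-Glu(CTC): taaccactagaccaccaggg
5′ end of the fragment: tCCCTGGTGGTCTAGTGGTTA

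The genes lie in 4 places in the mouse genome (GRCm38, GENCODE release M21). Cxcl5 (chr5:90759360-90761624), Cxcl3 (chr5:90786103-90789600), Cxcl1 (chr5:90891241-90893115) and Cxcl2 (chr5:90903871-90905938) follow each other on the plus strand of chromosome 5. Further along that chromosome, on the minus strand, come Cxcl9 (chr5:92321347-92328079), Cxcl10 (chr5:92346638-92348889) and Cxcl11 (chr5:92359544-92365485), the last of which is annotated as a polymorphic pseudogene. Cxcl14 (chr13:56288643-56296551) and Cxcl16 (chr11:70453983-70459984) lie alone, both on the minus strand. Cxcl16 shares 552 bases with Zmynd15 on the opposite strand, and Cxcl10 and Cxcl11 lie within Art3, also on the opposite strand. The kit keeps the strand, but the sources used here do not say whether the counting used it, and reads from shared bases cannot be assigned with certainty. Art3 had at most 1 read in any library. Of the 50-base windows in annotated transcripts, 5.84% of those of Cxcl2 occurred in another gene, which was Cxcl3, and 4.24% of those of Cxcl3 occurred in Cxcl2 or other genes. For each of the other members this share was below 1%.

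Promoter sequences of 6 members were in the RefSeq table (GRCm38.p6). Those of 5 members whose mean was higher in αGlu are printed, since they show what the neighbouring genes do and do not share. Each line gives the 250 bases before the RefSeq start, 5′ to 3′ along the gene, and the last 28 bases of the Cxcl2 stretch lie within the gene as GENCODE draws it. Capitals mark matches to the κB consensus, the site bound by NF-κB proteins, and to a pair of GAAA separated by 2 bases, the core of interferon-stimulated response elements.
Cxcl1, chr5:90890995-90891244, plus strand: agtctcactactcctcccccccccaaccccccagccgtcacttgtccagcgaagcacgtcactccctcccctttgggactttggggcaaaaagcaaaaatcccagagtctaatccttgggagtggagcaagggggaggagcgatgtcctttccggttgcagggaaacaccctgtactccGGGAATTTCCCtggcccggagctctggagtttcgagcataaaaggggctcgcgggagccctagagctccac
Cxcl2, chr5:90903649-90903898, plus strand: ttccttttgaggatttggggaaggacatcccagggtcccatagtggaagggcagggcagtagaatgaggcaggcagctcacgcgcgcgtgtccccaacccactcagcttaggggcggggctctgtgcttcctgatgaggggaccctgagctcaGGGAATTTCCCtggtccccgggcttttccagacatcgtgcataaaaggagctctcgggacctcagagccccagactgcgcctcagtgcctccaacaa
Cxcl3, chr5:90785851-90786100, plus strand: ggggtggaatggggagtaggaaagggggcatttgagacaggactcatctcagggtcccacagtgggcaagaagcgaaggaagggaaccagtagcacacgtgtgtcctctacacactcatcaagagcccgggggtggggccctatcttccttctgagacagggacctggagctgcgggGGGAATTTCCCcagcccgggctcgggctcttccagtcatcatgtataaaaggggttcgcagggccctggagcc
Cxcl9, chr5:92328080-92328329, minus strand: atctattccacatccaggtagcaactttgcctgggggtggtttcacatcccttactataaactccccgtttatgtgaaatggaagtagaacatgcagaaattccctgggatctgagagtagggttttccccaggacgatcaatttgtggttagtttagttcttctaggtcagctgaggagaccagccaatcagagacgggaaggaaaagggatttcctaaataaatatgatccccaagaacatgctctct
Cxcl10, chr5:92348890-92349139, minus strand: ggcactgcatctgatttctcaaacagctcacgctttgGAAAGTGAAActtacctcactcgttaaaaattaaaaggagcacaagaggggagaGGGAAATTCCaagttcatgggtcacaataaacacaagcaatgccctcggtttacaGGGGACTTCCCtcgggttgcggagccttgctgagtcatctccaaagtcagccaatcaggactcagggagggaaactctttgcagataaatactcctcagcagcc

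The longest run of letters common to the promoters of Cxcl1, Cxcl2 and Cxcl3 was GGGAATTTCCC, which holds a match to the κB consensus on each strand. It stood at bases -71 to -61 from the start of Cxcl1, at -97 to -87 in Cxcl2 and at -73 to -63 in Cxcl3. Searched on both strands, these letters were in 14 of 32851 promoters of the same length, or 0.0426%. The κB consensus as a whole was found in those promoters and in that of Cxcl10, against 7.25% of all promoters. In the Cxcl10 promoter the capitals from -159 to -150 are a single match, and those from -104 to -94 hold 2 that overlap. The spaced pair of GAAA was found in the promoters of Cxcl10 (-213 to -204) and Cxcl14 (-172 to -163), against 2.98% of all. TTC and GAA with 3 bases between them were found in Cxcl14 alone of the 6, against 7.02% of all, and with 4 bases between them in none of the 6, against 5.85%. TATAAA was found in Cxcl3 and Cxcl9, against 12.4% of all. The Cxcl9 stretch thus had no capitals. These are matches of letters, not sites of binding.

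Total exon counts per library ranged from 17912831 to 30386653, and no library pair agreed within sampling noise. In 4 of the 5 members with enough reads for a test, αGlu 1 lay nearer to the Ctr libraries than to αGlu 2 and αGlu 3. The same held across all genes tested, where the first principal component (76.7% of the variance) placed Ctr between -50.5 and -35.8, αGlu 1 at -22.2, and αGlu 2 and αGlu 3 at 74.4 and 74.7. The fits of the members are therefore given also without αGlu 1. That library was singled out by its values, so the smaller spread and adjusted p of those fits follow in part from the choice. They are no independent support. Of the 6 macrophage markers listed, Csf1r and Lyz2 were high in every library, with at least 2399 and 5691 CPM. CPM is the number of reads of a gene scaled to the size of its library. Others of the list moved in both directions. Cd68 was at 1808 to 2062 CPM in Ctr, against 1989, 1235 and 1143 CPM in αGlu 1, 2 and 3. Itgam was at 424.8 to 533.7 CPM in Ctr, against 323.7, 1033 and 1303 CPM in αGlu. The IL-4/IL-13 response genes differed between the groups. Of the 10 listed, 5 were lower in all αGlu libraries than in all Ctr libraries (16% of all genes tested were), among them Irf4 and Mgl2, and Arg1 was at 24.3 to 45.2 CPM in Ctr, against 23.5, 1884 and 1789 CPM in αGlu 1, 2 and 3. The part of these differences in the chemokine results was not tested.

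Across the family, Cxcl9 was the member that was higher in every αGlu library by far more than the Ctr libraries differed. Cxcl1, Cxcl2, Cxcl3, Cxcl10 and Cxcl16 were 6.44 to 249.7 times the Ctr level in αGlu 2 and αGlu 3, while in αGlu 1 the interval of the ratio included 1 for each of these 5. Cxcl14 was lower in αGlu 2 and αGlu 3 than in Ctr, and Cxcl5 and Cxcl11 had at most 16 and 11 reads in any library. With edgeR's quasi-likelihood test on all 6 libraries and Benjamini-Hochberg adjustment, 0 of the 5 members tested were called (adjusted p below 0.1 together with a log2 fold change beyond 1 in either direction), and the same test called 0% of all 11933 genes. At an unadjusted p under 0.05, 4 of the 5 members tested were higher in αGlu, against 12.7% of all genes tested, and 0 were lower, against 11.9%. Cxcl9 and Cxcl10 passed the filter on low counts only through the αGlu libraries, where they were high, so this count is in part fixed by the filter. The other 4 members (Cxcl1, Cxcl3, Cxcl5 and Cxcl11) had too few reads in at least 4 libraries to be tested. Over all 9 members, 3 (Cxcl9, Cxcl10 and Cxcl11) were higher in every αGlu library than in any Ctr library and 0 were lower. Cxcl11 was below the filter, and among the 5 members tested 2 were higher in this sense. Among all genes tested 14.2% were higher and 16% lower.

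**Figure D1:**
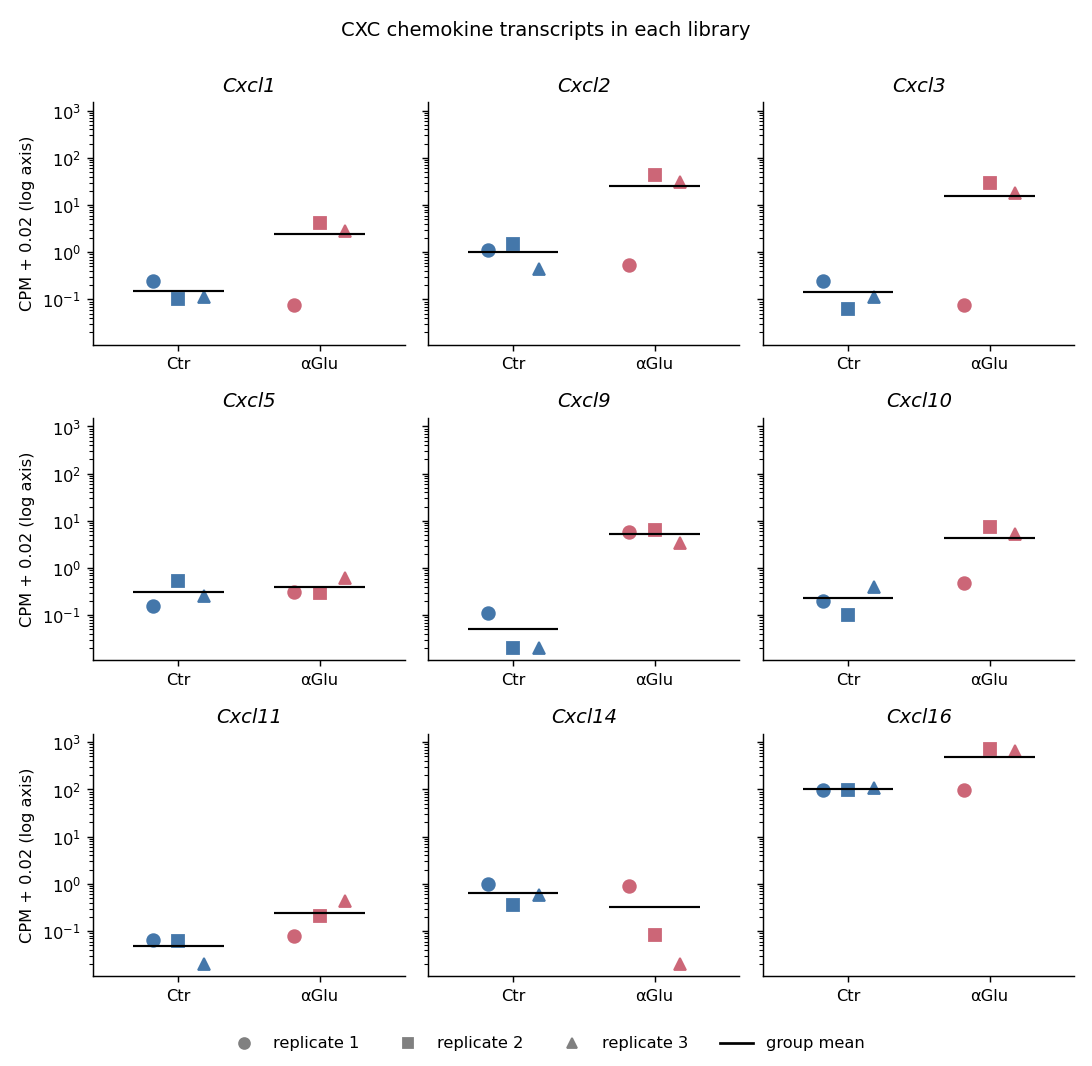
Scaled reads (CPM) of each CXC chemokine in the 6 libraries, plotted with 0.02 added on a log axis (points, 1 per library, with the shape giving the replicate number; lines, means of 3 libraries). αGlu 1 lies among the Ctr libraries for Cxcl2, Cxcl3, Cxcl5, Cxcl14 and Cxcl16, and with the other αGlu libraries for Cxcl9.

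Among the ligands of Cxcr2, Cxcl2 had 24, 36 and 9 reads in Ctr 1, 2 and 3, and 9, 1408 and 827 in αGlu 1, 2 and 3. In CPM these were 1.09, 1.504 and 0.417 in Ctr against 0.516, 44.3 and 30.3 in αGlu. αGlu 1 was thus inside the range of Ctr, and the groups overlapped. The log2 fold change was 4.63 ± 1.41 (SE), with an adjusted p of 0.160 in edgeR's quasi-likelihood test. Without αGlu 1 it was 5.19 with an adjusted p of 0.000158 in the same test, and over 16 alternative settings the adjusted p lay between 0.000158 and 0.427. By counting error alone, the level in αGlu 1 was 0.505 times that of Ctr (95% interval 0.222 to 1.01), and in αGlu 2 and αGlu 3 it was 43.3 times (34.0 to 56.0) and 29.6 times (23.2 to 38.5).

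Cxcl3 had 5, 1 and 2 reads in Ctr and 1, 941 and 490 in αGlu. Its CPM was 0.227, 0.0418 and 0.0928 in Ctr and 0.0573, 29.6 and 17.9 in αGlu. Nearly all its reads came from αGlu 2 and αGlu 3, and αGlu 1 lay within the range of Ctr. In αGlu 1 the level was 0.484 times that of Ctr (0.0109 to 3.61), which a single read cannot place above or below Ctr, and in αGlu 2 and αGlu 3 it was 249.7 times (126.2 to 580.1) and 151.5 times (76.3 to 352.9). The mean log2 CPM, with 2 reads added, was 4.48 higher in αGlu (exact two-sided permutation test, p = 0.3, where 0.1 is the smallest p that 3 libraries against 3 allow). Fitted without the filter on low counts, the log2 fold change was 7.01 ± 1.75, with an adjusted p of 0.162 in edgeR's quasi-likelihood test.

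Cxcl1 had 5, 2 and 2 reads in Ctr and 1, 134 and 77 in αGlu, which is 0.227, 0.0836 and 0.0928 CPM against 0.0573, 4.21 and 2.82 CPM. As for Cxcl3, αGlu 2 and αGlu 3 held nearly all reads, and αGlu 1 was the lowest library. The ratios to Ctr were 0.430 (0.00981 to 3.10), 31.6 (16.2 to 70.6) and 21.2 (10.6 to 48.0) in αGlu 1, 2 and 3. The mean log2 CPM was 2.53 higher in αGlu (exact two-sided permutation test, p = 0.4), and the unfiltered log2 fold change was 4.12 ± 1.23, with an adjusted p of 0.175 in edgeR's quasi-likelihood test. Without αGlu 1, Cxcl1 and Cxcl3 passed the filter, and did so only through αGlu 2 and αGlu 3, where they were high. The fits then gave log2 fold changes of 4.67 ± 0.44 and 7.59 ± 0.42 and adjusted p of 0.000533 and 6.75e-05 in the quasi-likelihood test.

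Cxcl5, the remaining ligand of Cxcr2, had a different pattern from Cxcl1, Cxcl2 and Cxcl3. It had 3, 12 and 5 reads in Ctr and 5, 9 and 16 in αGlu, so the groups overlapped. In αGlu 2, where the level of Cxcl3 was 249.7 times that of Ctr, that of Cxcl5 was 0.955 times (0.383 to 2.19), and in αGlu 3 it was 1.98 times (0.959 to 4.02). The counting intervals of Cxcl5 and Cxcl3 did not overlap in either library. Without αGlu 1 its fitted log2 fold change was 0.54 ± 0.63. The mean log2 CPM was 0.39 higher in αGlu (exact two-sided permutation test, p = 0.4), and a difference within these intervals was not detectable at this depth.

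**Figure D2:**
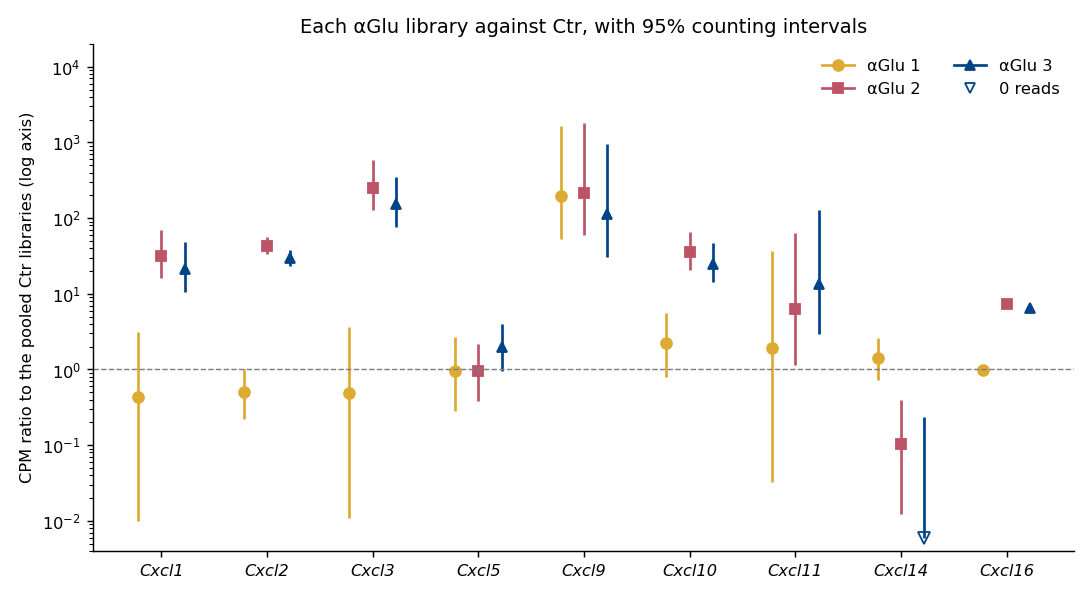
Ratio of each αGlu library to the pooled reads of the 3 Ctr libraries, in CPM on a log axis (points), with 95% intervals that cover counting error only (lines); an open triangle marks 0 reads. The ratio of Cxcl9 in αGlu 1, 197.4, is beside those of the other αGlu libraries, while for Cxcl2, Cxcl3 and Cxcl16 αGlu 1 is separated from the others.

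Among the ligands of Cxcr3, Cxcl9 had 2, 0 and 0 reads in Ctr and 102, 204 and 91 in αGlu. This corresponds to 0.0908, 0 and 0 CPM in Ctr and to 5.85, 6.41 and 3.33 CPM in αGlu. The groups did not overlap, and αGlu 1 was between the other αGlu libraries. The ratio of αGlu to Ctr was 175.1 over all libraries (95% interval 48.1 to 1451), and 197.4 (53.3 to 1652), 216.5 (59.2 to 1800) and 112.5 (30.3 to 943.4) in αGlu 1, 2 and 3. Without αGlu 1 the log2 fold change was 7.14 ± 0.74, with an adjusted p of 0.000721 in edgeR's quasi-likelihood test. With all 6 libraries it was 7.22 ± 0.78, with an unadjusted p of 8.52e-05 and an adjusted p of 0.149 in the same test. That was the smallest adjusted p of all 11933 genes, but it was shared with genes of larger p, such as Arid5a (unadjusted p 0.00207 in that test). Cxcl9 ranked 3 by p and 8 by log2 fold change among the genes tested. It passed the filter on low counts only through the αGlu libraries, where it was high, so these ranks are in part fixed by the filter. With 2 reads in the Ctr group, the fold depends on the prior count of the fit, and leaving out Ctr 1, which held both reads, gave 9.99. Over 16 alternatives its adjusted p lay between 3.1e-19 and 0.427.

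Cxcl10 had 4, 2 and 8 reads in Ctr and 8, 236 and 140 in αGlu, or 0.182, 0.0836 and 0.371 CPM against 0.459, 7.42 and 5.13 CPM. The groups did not overlap in CPM, but αGlu 1 and Ctr 3 had the same number of reads, 8, in libraries of different depth. The ratio to Ctr in αGlu 1 was 2.21 (0.804 to 5.65), which includes 1, against 35.8 (20.9 to 66.5) and 24.7 (14.3 to 46.4) in αGlu 2 and αGlu 3. The intervals of Cxcl9 and Cxcl10 in αGlu 1 thus did not overlap. The log2 fold change was 4.35 ± 1.10, with an adjusted p of 0.156 in edgeR's quasi-likelihood test, and without αGlu 1 it was 4.88 with an adjusted p of 0.000461. Over 13 alternatives the adjusted p lay between 0.000461 and 0.351.

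Cxcl11 had 1, 1 and 0 reads in Ctr and 1, 6 and 11 in αGlu. The groups did not overlap in CPM only because αGlu 1 was the shallowest library, and the count of members that did not overlap rests in part on that read. Its ratios to Ctr were 1.94 (0.0328 to 37.2), 6.37 (1.14 to 64.5) and 13.6 (2.97 to 126.3). The mean log2 CPM was 1.26 higher in αGlu (exact two-sided permutation test, p = 0.1, the smallest it can give). Fitted without the filter on low counts, its log2 fold change was 2.73 ± 1.03 with all libraries and 3.11 ± 1.02 without αGlu 1.

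Cxcl14 was the member with a negative fold change. It had 21, 8 and 12 reads in Ctr and 15, 2 and 0 in αGlu, and αGlu 1 lay inside the range of Ctr. For αGlu 3, 0 of 25501263 reads allows a level of up to 0.118 CPM. The ratios to Ctr were 1.42 (0.728 to 2.61), 0.104 (0.0121 to 0.399) and 0 (0 to 0.233) in αGlu 1, 2 and 3. The log2 fold change was -1.20 ± 1.24, with an adjusted p of 0.546 in edgeR's quasi-likelihood test, and without αGlu 1 it was -4.002 ± 0.93 with an adjusted p of 0.0167. In the latter fit Cxcl14 passed the filter on low counts only through Ctr libraries, where it was high. The adjusted p lay between 0.0167 and 0.838 over 15 alternatives.

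Cxcl16 had by far the most reads of the 9, with 2101, 2380 and 2267 in Ctr and 1702, 22962 and 17572 in αGlu. In CPM it was at 95.4, 99.4 and 105.1 in Ctr and at 97.6, 722.0 and 643.7 in αGlu. With its depth, αGlu 1 could be placed closely, at 0.976 times the Ctr level (0.925 to 1.03), against 7.22 times (7.03 to 7.42) in αGlu 2 and 6.44 times (6.26 to 6.62) in αGlu 3. The log2 fold change was 2.29 ± 0.70, with an adjusted p of 0.160 in edgeR's quasi-likelihood test. Without αGlu 1 it was 2.77 ± 0.10 with an adjusted p of 1.84e-05, and over 16 alternatives the adjusted p lay between 1.84e-05 and 0.427. Zmynd15, the gene on the opposite strand that shares bases with Cxcl16, had 61, 74 and 85 reads in Ctr and 74, 1156 and 910 in αGlu, with a log2 fold change of 2.92 ± 0.77. How many of its reads came from Cxcl16 was not tested, and in each library Zmynd15 had far fewer reads than Cxcl16.

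**Figure D3:**
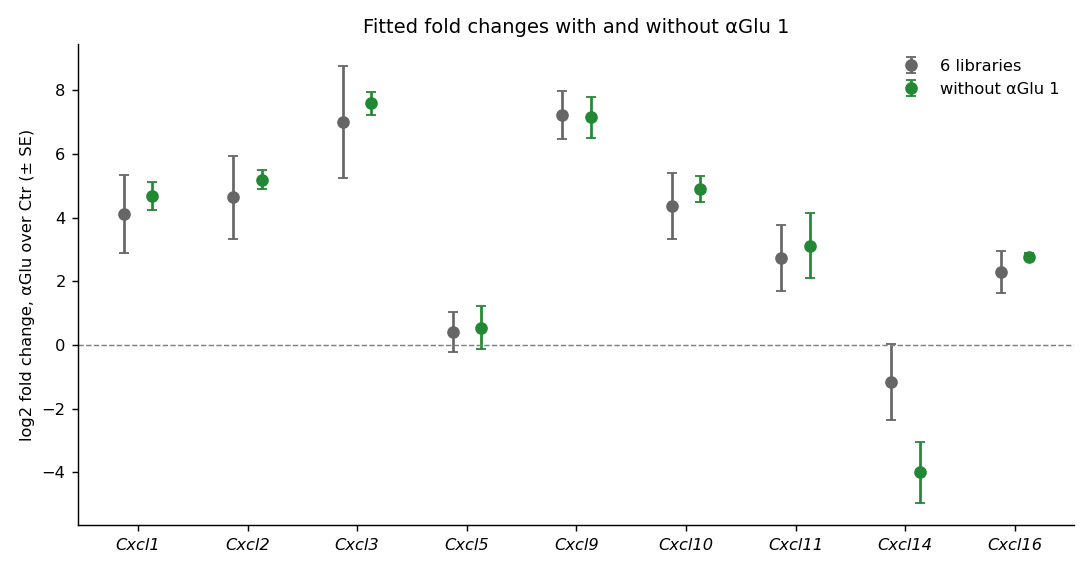
Log2 fold changes of the 9 members, αGlu over Ctr, fitted with edgeR without a filter on low counts (points; lines, ± SE), for all 6 libraries (grey) and without αGlu 1 (green). The SE of Cxcl16 narrows from 0.65 to 0.11 when αGlu 1 is left out, and Cxcl14 moves from -1.161 to -3.997.

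The calls on the members depended on αGlu 1 and on the test. Without αGlu 1, edgeR's quasi-likelihood test called 6 members higher (Cxcl1, Cxcl2, Cxcl3, Cxcl9, Cxcl10 and Cxcl16), against 8.05% of all genes, and 1 lower (Cxcl14), against 10.5%. Cxcl1, Cxcl3, Cxcl9 and Cxcl10 passed the filter on low counts only through the αGlu libraries, where they were high. Cxcl14 passed it in this fit only through Ctr libraries, where it was high. The counts of members called higher and lower are thus in part fixed by the filter. In the same 5 libraries the groups did not overlap for 7 members that were higher, against 33.5% of the 11933 genes tested with all libraries, and for 1 that was lower, against 32.3%. The 7 include Cxcl1, Cxcl3 and Cxcl11, which were below the filter with all libraries, so that count and share are not over like genes. With all 6 libraries, DESeq2 called the same 6 members higher, against 4.23% of all genes, with log2 fold changes of 7.45 for Cxcl9, 4.63 for Cxcl2, 4.36 for Cxcl10 and 2.28 for Cxcl16. DESeq2 without αGlu 1 added Cxcl11, for 7 higher against 7.01%, and Cxcl14, for 1 lower against 9.91%. The likelihood-ratio test of edgeR called 4 members higher (Cxcl2, Cxcl9, Cxcl10 and Cxcl16), against 3.87%. The same 4 passed the quasi-likelihood test when the adjusted p was allowed to reach 0.2, against 4.19%. In these 2 counts Cxcl9 and Cxcl10 again passed the filter only through αGlu. DESeq2 leaves out genes by mean count, and for Cxcl1, Cxcl3, Cxcl9 and Cxcl10 most reads came from αGlu. For Cxcl14 without αGlu 1 most reads came from Ctr. The counts of DESeq2 thus have a like limit. With the replicate number as a block, 0 members were called, against 0.142% of all genes.

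Levels of different genes were compared on the TPM scale, which accounts for length. Cxcl16 was the most abundant member in every library, at 97.2, 98.1 and 104.1 TPM in Ctr and 100.2, 766.3 and 701.3 TPM in αGlu, and it ranked 1322, 1355 and 1261 among all genes in Ctr, 1371 in αGlu 1, and 151 and 171 in αGlu 2 and αGlu 3. It made up 95.7%, 96.2% and 97.6% of the summed TPM of the 9 in Ctr, 91.3% in αGlu 1, and 86.4% and 89.5% in αGlu 2 and αGlu 3. What was second differed between libraries. In αGlu 1 it was Cxcl9, with 5.48% of the summed TPM, while in αGlu 2 it was Cxcl2, with 7.74%, followed by Cxcl3 with 3.06%, Cxcl10 with 1.19% and Cxcl9 with 0.768%. In αGlu the mean levels were 522.6 ± 367.2 TPM for Cxcl16, 39.2 ± 34.8 for Cxcl2, 14.7 ± 13.7 for Cxcl3, 6.23 ± 5.09 for Cxcl10, 5.49 ± 1.66 for Cxcl9 and 4.08 ± 3.63 for Cxcl1 (SD, n = 3), and in this order the ranges of mean ± SD overlapped between neighbours from Cxcl2 on. Cxcl5, Cxcl14 and Cxcl11 had means of 0.667 ± 0.319, 0.524 ± 0.813 and 0.185 ± 0.153 TPM. In Ctr, Cxcl16 at 99.8 ± 3.74 TPM was followed by Cxcl2 at 1.46 ± 0.794 and Cxcl14 at 1.02 ± 0.539, whose ranges also overlapped, and each of the other members was below 0.5 TPM.

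The genes with the most similar pattern were sought for each tested member by the root mean square difference in log2 CPM over the 6 libraries, after centring, among 9902 genes. These had a mean log2 CPM of at least 1, so genes at lower levels were not searched. The members themselves and gene models without a proper name were left out too, so no member could be the nearest gene of another. For Cxcl16 the nearest were Bnip3, at 11.9, 11.03 and 11.9 CPM in Ctr and 11.5, 66.9 and 66.4 in αGlu, and Dst (differences of 0.143 for both). For Cxcl2 they were Flrt3 (0.488) and Thbs1 (0.499), for Cxcl10 Nupr1 (0.229) and Cp (0.343), and for Cxcl14 Cd36 (0.389) and Mras (0.390). Cd36, a scavenger receptor for fatty acids and oxidized lipoproteins, was at 2333 to 2896 CPM in Ctr, against 2412, 452.5 and 299.5 CPM in αGlu 1, 2 and 3. Cxcl9, whose own mean log2 CPM was below that limit, had no close match among the genes searched. Its nearest genes were Ccl5 (1.28), another chemokine, which was at 3.59, 7.85 and 13.5 CPM in Ctr, against 274.2, 1089 and 1030 CPM in αGlu, and Cst7 (1.38). The median gene differed from the members by 1.31 to 2.82.

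Of the 6 other CXC chemokine genes listed, Pf4 and Ppbp had enough reads for a test, and Cxcl15 and Cxcl17 had 0 reads in every library. Pf4, a chemokine stored in platelets and also made by macrophages, was at 3.13, 3.43 and 3.25 CPM in Ctr, against 4.41, 149.2 and 208.8 CPM in αGlu. Its groups did not overlap, although αGlu 1 was close to Ctr, and its log2 fold change was 5.21 ± 1.30, with an adjusted p of 0.156 in edgeR's quasi-likelihood test. Ppbp, which lies between Cxcl5 and Pf4 on chromosome 5 and is also stored in platelets, was at 1.41 to 3.62 CPM in Ctr and 1.38 to 2.60 in αGlu, with a log2 fold change of -0.24 ± 0.41. The 6 platelet and megakaryocyte markers had a mean of 1.07 to 2.06 CPM in Ctr and 0.936 to 1.14 in αGlu, and Itga2b was at most 3.94 CPM in any library.

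Of 10 CXC chemokine receptors and decoy receptors listed, Cxcr3 and Cxcr4 had enough reads for a test. Cxcr3, the receptor of Cxcl9 and Cxcl10, was at 0.318, 0.376 and 0.881 CPM in Ctr, against 1.78, 1.195 and 3.15 CPM in αGlu, and its groups did not overlap. Its log2 fold change was 1.96 ± 0.55, with an adjusted p of 0.159 in edgeR's quasi-likelihood test. Cxcr4 was at 98.8, 121.7 and 108.9 CPM in Ctr, against 118.5, 254.9 and 222.5 CPM in αGlu (log2 fold change 0.86 ± 0.29). Cxcr2 and Cxcr6, the receptors of Cxcl1 to Cxcl3 and of Cxcl16, had at most 10 and 8 reads in any library. Among the 10 neutrophil markers, 2 defining ones, Ly6g and Retnlg, had 0 reads in all libraries. The mean of that list was 10.7 to 15.96 CPM in Ctr and 18.6, 53.8 and 60.8 CPM in αGlu 1, 2 and 3, most of which was Csf3r, a receptor that was at 102.6 to 158.1 CPM in Ctr and 183.3 to 606.7 CPM in αGlu. Its part in the chemokine results was not tested. The lymphocyte list had a mean of at most 3.44 CPM in any library, nearly all of it Cd4, and Nkg7 and Cd3e had at most 1 read.

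Of the NF-κB subunits, kinases and inhibitors, 14 of 14 listed genes were tested. At an unadjusted p under 0.05, 9 were higher and 0 lower in αGlu, against 12.7% and 11.9% of all genes tested, and the median log2 fold change was 0.94, against 0.02 over all genes tested. Bcl3, a nuclear partner of NF-κB subunits, was at 8.13 to 8.63 CPM in Ctr, against 11.01, 59.7 and 55.9 CPM in αGlu (log2 fold change 2.34 ± 0.61), and Nfkbiz, an inducible nuclear cofactor, was at 3.43 to 3.50 CPM and at 4.59, 21.8 and 25.3 CPM (2.33 ± 0.61). For both the groups did not overlap, with αGlu 1 close to Ctr. Nfkb1, which had the highest mean CPM of the list over the 6 libraries, though not in Ctr or in αGlu 1, was at 107.1 to 112.5 CPM in Ctr, against 111.0, 174.5 and 180.4 CPM in αGlu. Without αGlu 1, 7 of the 14 were called higher, against 8.05% of all genes, and 0 lower, against 10.5%.

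Among 11 cytokines known to induce CXC chemokines, 4 were tested, with 3 higher and 0 lower at an unadjusted p under 0.05 (12.7% and 11.9% of all genes tested). Their median log2 fold change was 1.93. Il1b, which had the highest mean CPM of them over the 6 libraries, but not in Ctr or in αGlu 1, had 10, 7 and 6 reads in Ctr and 1, 10227 and 9405 in αGlu. Its log2 fold change was 9.33 ± 2.43, and αGlu 1 was below all Ctr libraries. Il1a was at 5.27 to 7.10 CPM in Ctr, against 6.13, 79.7 and 54.9 CPM in αGlu (2.88 ± 0.85). In αGlu 1 neither Il1b nor Il1a was above the range of Ctr, as was the case for Cxcl1, Cxcl2, Cxcl3 and Cxcl16. This likeness is not particular to these genes, since αGlu 1 lay nearer to the Ctr libraries across all genes tested. The part of these cytokines in the chemokine results was not tested.

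Of genes that belong to the interferon-γ pathway, Ifng itself had 0 reads in Ctr and 0, 3 and 2 reads in αGlu. Socs1, an inhibitor of cytokine signalling, was at 7.27 to 9.23 CPM in Ctr, against 12.1, 38.6 and 39.5 CPM in αGlu (log2 fold change 1.83 ± 0.45). Ciita, the activator of class II major histocompatibility genes, was lower in every αGlu library (101.8, 73.7 and 80.4 CPM) than in Ctr (116.3 to 149.8 CPM), with a log2 fold change of -0.65 ± 0.16.

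Of the type I interferon axis, 17 of 18 listed genes were tested. At an unadjusted p under 0.05, 2 were higher, a share near the 12.7% of all genes tested, and 0 were lower, against 11.9%. All 17 had a log2 fold change above 0 with all 6 libraries, and the share of all genes tested that did was not computed. In every αGlu library 5 were higher than in any Ctr library and 0 lower, against 14.2% and 16% of all genes tested. The median log2 fold change was 0.56. In this list it was Ctr 1 that stood apart, with a mean log2 CPM of 4.64 against 6.59 to 6.94 in the other 5 libraries. Without Ctr 1 the median log2 fold change of the list was 0.09, against 0.03 over all genes fitted, so the difference with all libraries rested largely on Ctr 1. Irf7, which had the highest mean CPM over the 6 libraries, though not in Ctr or in αGlu 1, was at 43.9, 474.9 and 558.6 CPM in Ctr, against 756.2, 1094 and 1004 CPM in αGlu (1.41 ± 0.83). Ifnar2 (0.95 ± 0.28) and Ifnar1 (0.90 ± 0.31), the subunits of the receptor, were the genes with p under 0.05.

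**Figure D4:**
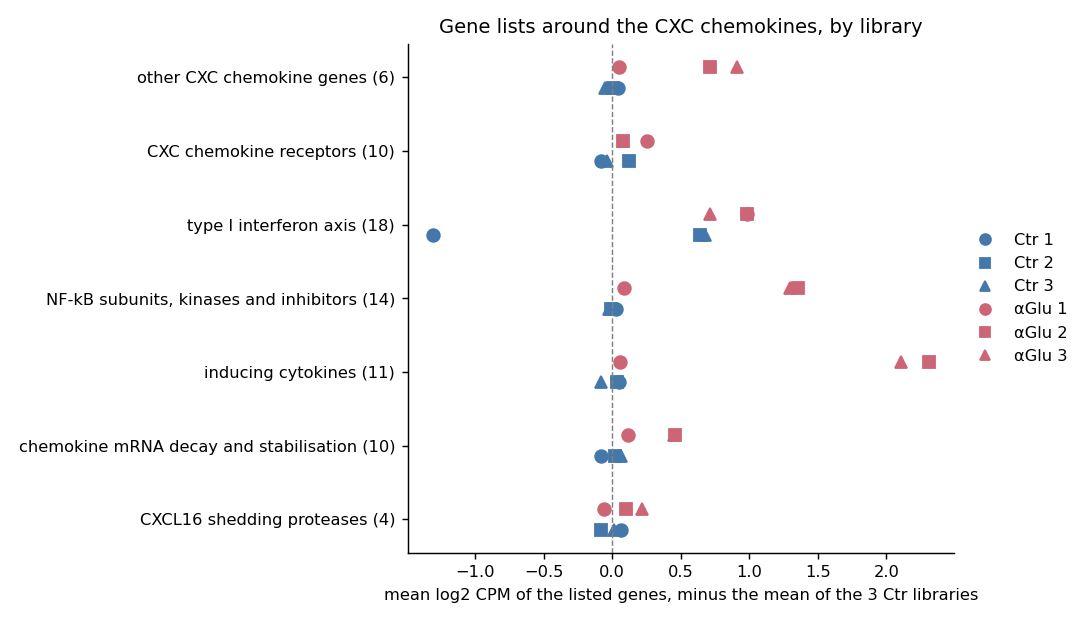
Mean log2 CPM of each gene list in each library, as the difference from the mean of the 3 Ctr libraries (blue, Ctr; red, αGlu; the shape gives the replicate number, and the number after each name the genes listed). αGlu 1 lies nearer to the Ctr libraries than to αGlu 2 and αGlu 3 for the NF-κB genes and the inducing cytokines, and Ctr 1 is the lowest library for the type I interferon axis.

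For the proteins that control the lifetime of chemokine messengers, 10 of 10 were tested. At an unadjusted p under 0.05, 3 were higher and 0 lower (12.7% and 11.9% of all genes tested), and the median log2 fold change was 0.01. In every αGlu library 3 were higher than in any Ctr library, against 14.2% of all genes tested. Lower in this sense were 2, against 16%, namely Zfp36l2 (-0.63 ± 0.26) and Elavl1 (-0.13 ± 0.07). Arid5a, which stabilizes inflammatory messengers, was at 10.6, 11.6 and 12.6 CPM in Ctr, against 19.3, 41.1 and 39.4 CPM in αGlu. Its groups did not overlap, αGlu 1 included, and its log2 fold change was 1.53 ± 0.30, with an adjusted p of 0.149 in edgeR's quasi-likelihood test. Zfp36l1, which promotes decay and had the highest mean CPM of the list over the 6 libraries, though not in Ctr or in αGlu 1, was at 67.6 to 86.7 CPM in Ctr, against 100.6, 410.7 and 428.4 CPM in αGlu (2.00 ± 0.54). Of the 4 proteases that can release Cxcl16 or related membrane proteins, all were tested. Adam9, with the highest mean CPM of them over the 6 libraries, was at 235.0 to 258.1 CPM in Ctr, against 288.9, 424.9 and 473.4 CPM in αGlu (0.67 ± 0.20), and it was the one at an unadjusted p under 0.05. Adam10, the protease best known for the release of Cxcl16, was at 145.0 to 173.0 CPM in Ctr, against 162.2, 111.7 and 119.2 CPM in αGlu (-0.31 ± 0.17), and Adam17 had a log2 fold change of 0.26 ± 0.14 with overlapping groups.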

How the data were processed

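The authors made the values with the QIAGEN RNA-seq Analysis Portal from stranded libraries and named the genome build GRCm38; the aligner, the annotation release and how multi-mapping reads were treated are not given in the sources used here. The deposited counts are whole exon reads per gene, without normalization, for 41549 genes. The deposited TPM and RPKM values, scaled by the authors for length and depth, served for levels between genes. A further deposited column is a signal, the authors' counts divided by an effective library size, and was not used. All 24 value columns matched a library, and 1 row that names no gene (blank) was left out.

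Genes were filtered with filterByExpr (minimum count 10, minimum total 15) in edgeR 4.0.16 (R 4.3.3), which left 11933, and all 6 libraries were fitted with TMM factors and the group as the only term. The quasi-likelihood test was two-sided with Benjamini-Hochberg adjustment over all genes. Calls needed an adjusted p below 0.1 together with a log2 fold change beyond 1 in either direction. Members below the filter were compared by exact permutation of log2 CPM (prior count 2). Intervals of count ratios are exact binomial at 95% and, like the limits for 0 reads (3 counts), cover counting error only. On simulated data with 11933 genes the test recovered 91% of genes changed 2-fold and 100% of those changed 4-fold, and 11.98% of its calls were false. The simulation took its spread from the Ctr libraries alone, changed only more abundant genes and had no library standing apart as αGlu 1 does. These shares therefore do not give the power of the real comparison. Alternatives used DESeq2 1.42.0, limma 3.58.1, other factors, filters, thresholds and prior counts, a replicate block and each library left out. The study describes its samples as independent experiments, while the labels say only that they are separate samples, so p-values measure the spread between these samples.

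The members and gene lists were chosen with earlier results of these data known, so no list or pattern is independent support. The text names all members, the other CXC genes and receptors with a mean of at least 1 CPM in a group, the 2 genes nearest to each tested member, and from each other list the 2 genes with the smallest p and the gene with the highest mean CPM over the 6 libraries. Other genes (Cxcr2, Cxcr6, Cxcl15, Cxcl17, Ifng, Zmynd15, Art3, Adam10, Zfp36l2, Elavl1 and markers) were named after their values were seen. Of the gene identifiers, 41474 occurred in GENCODE M21. The counts over the interferon-γ list and 1 of its genes are not reported here.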

Additional observations from a re-analysis of the deposited data

How the results depend on the processing

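Leaving out 1 library at a time gave 0 to 7 members called. The 7 came without αGlu 1, and leaving out any of the other 5 libraries gave 0. The count was 6 with DESeq2, 4 with the likelihood-ratio test, 4 at an adjusted p under 0.2 and 8 with DESeq2 without αGlu 1 (chosen after the data had been seen). In the other 15 alternatives it was 0. In the fits without a filter on low counts, also chosen after the data had been seen, it was 1 (Cxcl9) when scaled by library size alone. That fit called 3 of all 17915 genes. Without αGlu 1 the unfiltered fit called 8 members, Cxcl14 lower and the others higher, while it called 2594 of all 17697 genes (1150 higher and 1444 lower). The number of members whose groups do not overlap was 3 to 8 when 1 library was left out, with 8 without αGlu 1. In that run 33.5% of all genes tested were higher and 32.3% lower without overlap, and the shares for the other libraries left out were not computed. The log2 fold changes with 1 library left out ranged from 3.94 to 5.19 for Cxcl2, 6.67 to 9.99 for Cxcl9, 3.96 to 5.0 for Cxcl10, -4.002 to -0.54 for Cxcl14 and 1.90 to 2.77 for Cxcl16. Cxcl10 was below the filter without αGlu 2 or αGlu 3. With DESeq2 they were 4.63 for Cxcl2, 7.45 for Cxcl9, 4.36 for Cxcl10 and 2.28 for Cxcl16, and with the likelihood-ratio test 4.63, 7.22, 4.33 and 2.29. No direction reversed for a tested member in any alternative run. The value for Cxcl5, which has few reads, ranged from -0.03 to 1.06. The cause of these differences was not tested. Scaling by library size alone moved the median log2 fold change of all genes from 0.02 to 0.10. Deviations of same-numbered libraries correlated at 0.0764, 0.0646 and 0.154 across genes, each the best match of its library. Libraries of unlike number correlated at no more than 0.0459. Not all same-numbered values were above 0.1, the limit used here, and the labels do not say whether equal numbers mark shared cells. The main fit therefore set no pairs, but the check does not show that the libraries are unpaired, and the replicate block gives the fit with pairs. With the replicate block 0 members were called, and Cxcl9 was at 7.28 (adjusted p 0.117, edgeR's quasi-likelihood test). Depth limits Cxcl1, Cxcl3, Cxcl5, Cxcl9, Cxcl11 and Cxcl14 in Ctr, where 3 reads correspond to 0.119 to 0.135 CPM.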

Other observations

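The 2 clusters on chromosome 5 can be set against the other genes within 100 kb that had enough reads for a test. Around Cxcl9, Cxcl10 and Cxcl11 these were Naaa, Sdad1, Nup54 and Scarb2, whose log2 fold changes lay between -0.42 and 0.35, against 7.22 for Cxcl9 and 4.35 for Cxcl10. Around Cxcl5 to Cxcl2 they were Pf4 (5.21), Ppbp (-0.24) and Mthfd2l (0.57). Around Cxcl16 there were 6, from Psmb6 at -0.04 to Zmynd15 at 2.92, with Arrb2, an adaptor of chemokine receptors, at 1.06 ± 0.34. These genes were named after their values were seen, and the differences between genes were not tested.

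The longest run of the stretch of the fragment paired by the antisense that occurs in an annotated transcript was 9 bases for Cxcl10 and 7 bases for the other 8 members. Of 21877 genes searched, 14.4% had a run of at least 9 bases and 81.7% one of at least 7, and the longest over all genes was 13 bases. A run of letters is no sign of binding.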
